A study of Arabidopsis thaliana with 9 samples.

Results

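IAA20, GH3.3 and GH3.5, a transcriptional repressor and a pair of auxin-conjugating enzymes of the auxin response, were examined across all 9 arrays of a study of dark-grown Arabidopsis thaliana seedlings. The genes were chosen by name, and each was represented by a single probe set annotated to it alone: IAA20 (AT2G46990), GH3.3 (AT2G23170) and GH3.5 (AT4G27260), the last of which the gene table lists as WES1. They are 3 of 13286 genes with a probe set named for 1 gene, on an array of 22746 probe sets, and 3 of the 23 such genes in lists of the auxin pathway. The study compared 3 genotypes in the Col-0 ecotype, with 3 biological replicates each. These were cop1-4 carrying the BBX22-GFPox construct, cop1-4 without it, and wild type. All seedlings were kept in darkness for 4 days on half-strength salt medium with sucrose, and RNA came from whole seedlings. COP1 is the E3 ubiquitin ligase that represses photomorphogenesis in the dark, and BBX22 belongs to the B-box transcription factors that favour it. The name of the construct was taken to mean a BBX22-GFP overexpressor. The sources used here give neither its promoter nor how many lines were grown, and cop1-4 is a single mutant allele.

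Auxin acts by bringing Aux/IAA repressors to the TIR1/AFB receptors, after which the repressors are degraded and auxin response factors drive transcription. Many Aux/IAA and GH3 genes are themselves switched on by auxin within minutes, so their transcripts are widely read as auxin response markers. IAA20 belongs to a small branch of the Aux/IAA family that lacks the degradation motif of the canonical members. GH3.3 and GH3.5 join indole-3-acetic acid to amino acids, which lowers the amount of free auxin. In dark-grown seedlings auxin is known for its part in the elongation of the hypocotyl and the closure of the apical hook.

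Values are MAS5 signals, intensities on a linear scale that the authors had scaled to a common level. The median signal of the arrays ran from 147.2 to 189.4. Replicate 1 stood apart in every genotype: across probe sets it correlated at 0.893 to 0.953 with the other replicates of its genotype on the log2 scale, whereas replicates 2 and 3 correlated at 0.982 to 0.989. Of 19 marker genes of seedling cell types, 7 had a probe set. The root hair gene EXPA18 was at 33.8 to 64.3 on the 3 replicate 1 arrays and at 373.9 to 750.3 on the other 6, and EXPA7 at 6.6 to 132.0 and 179.5 to 351.9. The leaf gene YAB3 was at 334.4 to 520.1 on all arrays, and the stomatal gene FAMA averaged 179 ± 23.1 with BBX22-GFPox, 142 ± 49.5 in cop1-4 and 65.7 ± 32.1 in wild type. In cop1-4 FAMA was at 199.2, 116.5 and 110.6 in replicates 1 to 3. The stomatal gene SPCH averaged 105 ± 29.5, 67.9 ± 37.7 and 45.6 ± 21.4 in the same genotypes, and its cop1-4 and wild type arrays overlapped. MUTE, also stomatal, was at 2.1 to 47.7 on all arrays. The seed gene OLEO3 was at 35.9 to 98.9 with the construct, 45.6 to 69.1 in cop1-4 and 1959.6 to 2322.5 in wild type. The part of these differences in the results was not tested, and in whole seedlings fewer cells of a type and less RNA per cell cannot be told apart. Because replicate 1 stood apart, the changes of the 3 genes are also given within replicate 1 and within replicates 2 and 3. That split does not remove differences between genotypes in marker genes, such as that of OLEO3.

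The repressor gene IAA20 was low in both cop1-4 genotypes. Its signal was 117.4, 33.5 and 32.3 in replicates 1 to 3 with BBX22-GFPox, 68.9, 56.5 and 54.6 in cop1-4, and 405.8, 490.4 and 676.7 in wild type. All wild type arrays lay above all arrays of the other genotypes, while the cop1-4 arrays lay between the highest and lowest arrays of the construct line. The means were 61.1 ± 48.8 with the construct, 60.0 ± 7.77 in cop1-4 and 524 ± 139 in wild type (SD, n = 3 each), so the mean was 8.74-fold lower in cop1-4 than in wild type. Within its array IAA20 stood at percentile 24.6 to 44.8 of all probe sets with BBX22-GFPox, and this percentile was 29.4 to 36.6 in cop1-4 and 67.5 to 78.2 in wild type. Detection calls were not used here, so it is unknown whether the low values exceed background.

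The conjugating enzyme gene GH3.5 was likewise low in both cop1-4 genotypes. Its signal was 758.4, 334.7 and 304.5 with BBX22-GFPox, 522.3, 509.0 and 504.2 in cop1-4, and 5650.9, 2146.7 and 2494.1 in wild type. Again no wild type array overlapped the others, and the cop1-4 arrays lay inside the range of the construct line. The cop1-4 arrays differed from each other by a factor of only 1.04, against 2.49 with the construct and 2.63 in wild type. The wild type mean of 3431 ± 1931 rested on a high replicate 1, and replicates 2 and 3 alone averaged 2320. The means with the construct and in cop1-4 were 466 ± 254 and 512 ± 9.38.

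GH3.3 was low on all arrays of the construct line and on a single array of cop1-4. Its signal was 86.0, 82.1 and 69.0 with BBX22-GFPox, 101.6, 497.8 and 349.6 in cop1-4, and 851.1, 303.3 and 304.9 in wild type. All construct arrays lay below all others, but cop1-4 and wild type overlapped. In cop1-4 replicate 1 was the low array and in wild type it was the high one, so the means of 316 ± 200.2 in cop1-4 and 486 ± 316 in wild type both carried a wide spread. The construct line was narrow, at 79.0 ± 8.91.

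**Figure D1:**
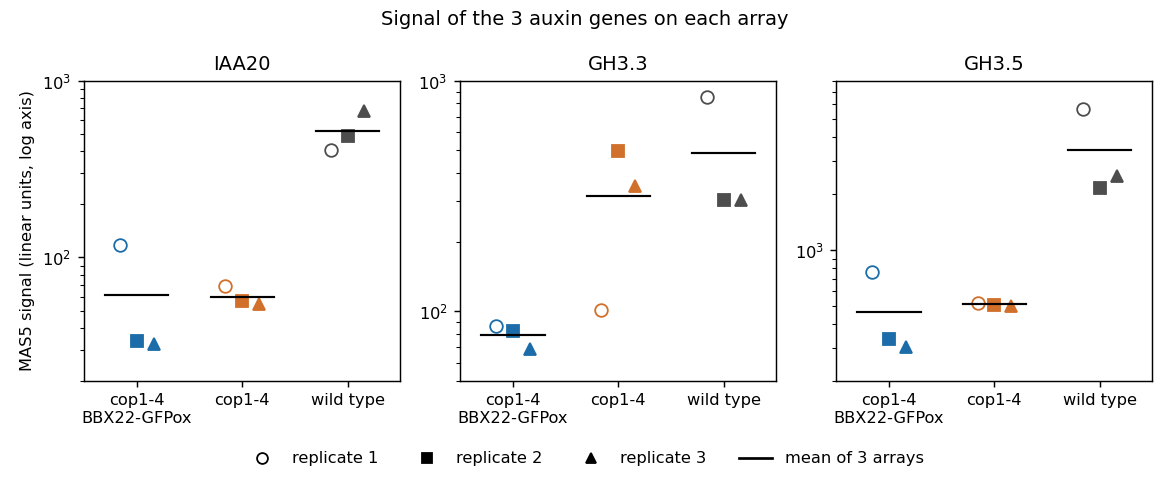
MAS5 signal (log axis) of IAA20, GH3.3 and GH3.5 on each array, by genotype; symbols mark the replicate number and bars the mean of 3 arrays. IAA20 and GH3.5 are low in both cop1-4 genotypes, and GH3.3 is low on all 3 arrays of cop1-4 BBX22-GFPox and on replicate 1 of cop1-4.

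For tests, signals were taken as log2(signal + 24.5), and limma was fitted to all 9 arrays over the 15922 probe sets that passed a filter on dim signals, which all 3 genes passed. A gene is said to have risen or fallen where the Benjamini-Hochberg adjusted p over all tested probe sets was under 0.05. The added constant understates changes of dim genes, IAA20 above all.

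In cop1-4 against wild type, which asks what loss of COP1 function changes in darkness, 2 of the 3 genes fell and none rose, where 14.5% of all tested probe sets were called lowered and 25.8% in either direction. With the replicate number as a block 24.6% were called lowered. IAA20 fell, with a log2 change of −2.67 (SE 0.364, 95% interval −3.50 to −1.85, limma adjusted p = 0.00186), the 160th lowest of 15922 changes. GH3.5 fell with a log2 change of −2.55 (SE 0.426, −3.52 to −1.58, limma adjusted p = 0.0042), the 185th lowest. Their arrays did not overlap, as for 25.7% of tested probe sets in that direction, so every same-numbered pair was necessarily lower too. Both calls held when any 1 array was left out (adjusted p up to 0.0114 for IAA20 and 0.0191 for GH3.5). Within replicate 1 the log2 difference was −2.20 for IAA20 and −3.38 for GH3.5, and within replicates 2 and 3 it was −2.91 and −2.14. For single genes an exact two-sided permutation test of 3 arrays against 3 cannot go below p = 0.1, the value it gave for each of these.

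GH3.3 was not called in that comparison, with a log2 change of −0.65 (SE 0.547, −1.89 to 0.59, limma adjusted p = 0.41). The replicates pointed in opposite directions. Within replicate 1 the difference was −2.80, and within replicates 2 and 3 it was 0.67 and 0.18, so the sign of the change over replicates 2 and 3 alone was positive (0.43, limma adjusted p = 0.0692 in a fit to those 6 arrays, in which 62.7% of tested probe sets were called). The log2 ratio of GH3.3 to GH3.5 within each array was 1.90 higher in cop1-4 than in wild type, and the arrays did not overlap. An exact permutation test gave p = 0.1, the smallest possible, and 0.45 after adjustment over the 9 pairs of genes and comparisons examined. As this test cannot go below 0.1, it cannot decide whether the GH3 genes changed unequally in cop1-4. For IAA20 against GH3.3 the difference in change was −2.03, with overlapping arrays (p = 0.2, exact permutation test, 0.45 adjusted). IAA20 and GH3.5 differed in their change by 0.12 (p = 1, exact permutation test).

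With BBX22-GFPox added to the cop1-4 background, 0 of the 3 genes were called by limma (1 had an unadjusted p under 0.05), where 0.301% of all tested probe sets were called and 0.0188% called lowered. GH3.3 had the largest difference, a log2 change of −1.49 (SE 0.547, −2.73 to −0.25, limma adjusted p = 0.496), the 61st lowest of 15922. Its arrays did not overlap, as for 4.99% of tested probe sets in that direction. The block left it uncalled (adjusted p = 0.273, with 0.258% of probe sets called lowered). It was lower in all 3 same-numbered pairs, by 0.19 on the log2 scale in replicate 1, 2.29 in replicate 2 and 2.00 in replicate 3. IAA20 stood at −0.12 (−0.94 to 0.71, adjusted p = 0.999) and GH3.5 at −0.25 (−1.21 to 0.72, adjusted p = 0.999). Both intervals hold changes in either direction, so a lack of effect was not shown.

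The replicates split in this comparison as well. In replicate 1 IAA20 was higher with the construct by a log2 difference of 0.60 and GH3.5 by 0.52. In replicate 2 they stood at −0.48 and −0.57, and in replicate 3 at −0.48 and −0.68. A fit to replicates 2 and 3 alone, whose p-values reflect the scatter of those 6 arrays, called GH3.3 (−2.15, limma adjusted p = 2.40e-06) and GH3.5 (−0.63, 0.00503) lower with the construct and did not call IAA20 (−0.48, 0.127). In that fit 11.5% of all tested probe sets were called lowered and 24.3% in either direction. Leaving out cop1-4 replicate 1 alone also gave a call for GH3.3 (−2.10, limma adjusted p = 0.0449), where 1.04% of probe sets were called lowered. Weighting the arrays by their scatter about the genotype means in these same data gave one too (−2.10, 0.000117), where 10.2% were. These fits share their arrays and are not independent of each other.

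**Figure D2:**
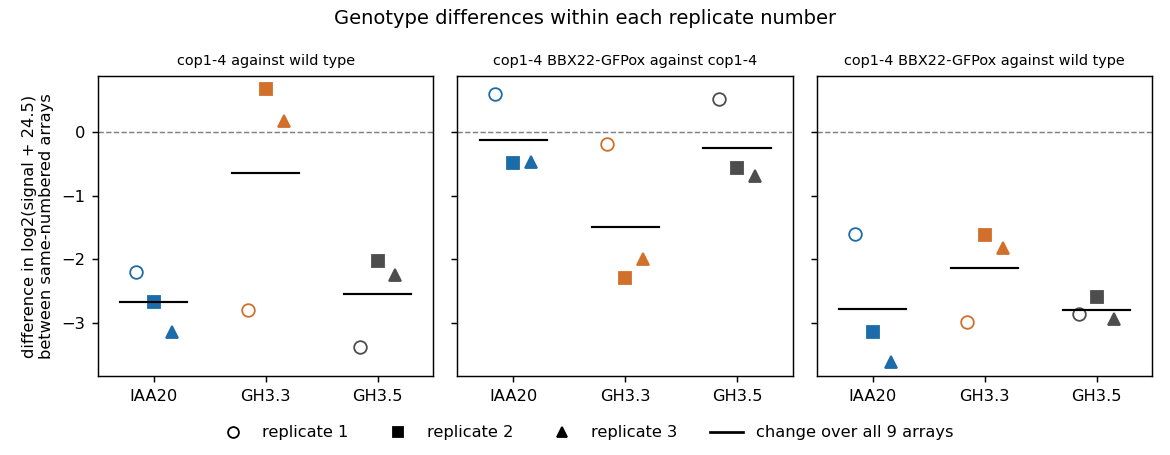
Difference in log2(signal + 24.5) between same-numbered arrays for the 3 comparisons, each gene with its replicates 1 to 3; bars are the change fitted over all 9 arrays and the dashed line is no difference. GH3.3 lies at −2.80 in replicate 1 and above 0 in replicates 2 and 3 for cop1-4 against wild type, and IAA20 and GH3.5 lie above 0 only in replicate 1 for cop1-4 BBX22-GFPox against cop1-4.

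In cop1-4 BBX22-GFPox against wild type all 3 genes fell, where 11.7% of all tested probe sets were called lowered (21.8% with the block) and 21.5% in either direction. GH3.5 had a log2 change of −2.80 (SE 0.426, −3.76 to −1.83, limma adjusted p = 0.00322), IAA20 one of −2.79 (SE 0.364, −3.62 to −1.97, adjusted p = 0.0018) and GH3.3 one of −2.14 (SE 0.547, −3.38 to −0.90, adjusted p = 0.025). Each had no overlap between genotypes, which held for 24.6% of tested probe sets in that direction, and so was necessarily lower in all 3 same-numbered pairs. GH3.5 was the most even over replicates, with −2.86 in replicate 1 and −2.77 in replicates 2 and 3. IAA20 had −1.60 and −3.39, and GH3.3 had −2.99 and −1.72. The GH3.3 call was lost without any of 4 arrays, wild type replicate 1 or 3 (adjusted p = 0.0786 and 0.0504) and cop1-4 BBX22-GFPox replicate 2 or 3 (0.0687 and 0.082), while those of IAA20 and GH3.5 held without any 1 array. The comparisons share their arrays, so the cop1-4 arrays and the wild type arrays each enter 2 of them.

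Of the other genes of the auxin pathway, named in lists of 113 members in all, the annotation gave a probe set to 20 besides these 3, and 10 of the 20 passed the filter. No auxin response factor and no receptor was among them. In cop1-4 against wild type 4 of the 10 fell and none rose, where 14.5% of all tested probe sets were called lowered (24.6% with the block). The 10 had a median log2 change of −1.03, against −0.11 over all tested probe sets. The median was −1.62 within replicate 1 and −0.63 within replicates 2 and 3. GH3.17, an enzyme of the same family known to favour glutamate as the amino acid, had a signal of 446.3, 616.5 and 749.8 in cop1-4 against 1850.1, 1999.8 and 2267.6 in wild type (log2 change −1.74, limma adjusted p = 0.00838). HAT2, an auxin-inducible homeodomain transcription factor gene, fell (log2 change −1.41, limma adjusted p = 0.00837), with −2.15 within replicate 1 and −1.04 within replicates 2 and 3. Both calls held without any 1 array.

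LBD16, a transcription factor gene of lateral root initiation, fell with a log2 change of −1.52 (limma adjusted p = 0.0371), and AT1G14130, which has no symbol in the gene table, fell with one of −0.64 (adjusted p = 0.0244). Within replicate 1 and within replicates 2 and 3 LBD16 stood at −1.25 and −1.65, and AT1G14130 at −0.69 and −0.62. Leaving out 1 array ended the LBD16 call in 6 cases, with an adjusted p of up to 0.121 for cop1-4 replicate 2. It ended that of AT1G14130 in 4 cases, with up to 0.0858 for wild type replicate 3. Both were also lost with quantile normalization (0.0604 and 0.0515) and with median centring (0.0735 and 0.0606), and LBD16 with no filter (0.0503). WAG2, a protein kinase gene related to PINOID that acts on auxin transport, averaged 385 ± 307 in cop1-4 and 1145 ± 278 in wild type (−2.10, adjusted p = 0.0906) and was called lower with the block (0.0126). Its cop1-4 signals of 30.5, 570.0 and 554.7 placed replicate 1 far below the others, as for GH3.3.

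Of the 4 tested Aux/IAA genes 1 was called in cop1-4, IAA20, which is close to the 25.8% of all probe sets called in either direction. IAA29 had signals of 122.8, 566.9 and 370.3 in cop1-4 against 574.9, 487.3 and 415.7 in wild type (−0.66, limma adjusted p = 0.295). IAA18 stood at −0.05 (adjusted p = 0.907) and IAA34 at −0.26 (0.723). The auxin synthesis gene YUC2, a flavin monooxygenase gene, stood at 0.25 (0.43) and AT1G14120, also without a symbol, at −1.40 (0.161).

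Between cop1-4 BBX22-GFPox and cop1-4, 0 of the 10 further genes were called by limma and 2 had an unadjusted p under 0.05, HAT2 (−0.89, adjusted p = 0.372) and YUC2 (−0.55, 0.59), and the block called none. Over all tested probe sets 0.301% were called and 1194 of 15922 had an unadjusted p under 0.05. The estimate for GH3.17 differed from that of GH3.3 in sign, with 556.6, 1383.5 and 1139.3 with the construct and 446.3, 616.5 and 749.8 in cop1-4 (0.68, adjusted p = 0.783). The GH3.17 arrays overlapped, neither gene was called, and whether their changes differ was not tested. In replicates 2 and 3 alone GH3.17 was called higher with the construct (0.86, limma adjusted p = 0.000771), and IAA29 (−1.40), WAG2 (−1.93), HAT2 (−1.03), AT1G14120 (−1.27) and YUC2 (−0.74) were called lower, again against a background of 24.3% called. IAA18 (0.09), IAA34 (−0.52), LBD16 (0.06) and AT1G14130 (0.31) had an adjusted p of at least 0.823 over all arrays.

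In cop1-4 BBX22-GFPox against wild type 5 of the 10 fell and none rose, where 11.7% of all tested probe sets were called lowered (21.8% with the block). The 10 had a median log2 change of −1.26, against −0.11 over all tested probe sets, and of −1.48 within replicate 1 and −1.28 within replicates 2 and 3. WAG2 had the largest change at −3.21 (limma adjusted p = 0.0252), with signals of 56.0, 127.5 and 131.0 against 834.5, 1230.6 and 1371.2 in wild type. AT1G14120 (−2.69, 0.0245), HAT2 (−2.30, 0.00139), IAA29 (−1.46, 0.044) and LBD16 (−1.45, 0.0483) also fell. AT1G14120 was uneven, at −4.43 within replicate 1 and −1.83 within replicates 2 and 3. Its signals were 12.5, 110.5 and 159.2 with the construct, the first under the offset of 24.5, and 775.3, 520.5 and 547.1 in wild type. The others differed less between replicate 1 and replicates 2 and 3 (HAT2 −2.76 and −2.07, WAG2 −3.42 and −3.11, IAA29 −1.64 and −1.37, LBD16 −1.32 and −1.52). Of the 5 genes that fell only HAT2 kept its call without any 1 array. The others lost it without any of 6 arrays for WAG2, 4 for AT1G14120, 7 for IAA29 and 7 for LBD16, with an adjusted p of up to 0.152 for LBD16 without cop1-4 BBX22-GFPox replicate 2. LBD16 was also lost with quantile normalization (0.0779), median centring (0.0874), no offset (0.0544) and no filter (0.0659), and IAA29 with no filter (0.0593). GH3.17 stood at −1.06 (0.0564) and was called lower with the block (0.00786). IAA18 (0.04), IAA34 (−0.78), YUC2 (−0.30) and AT1G14130 (−0.34) were not called (adjusted p 0.185 to 0.941).

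**Figure D3:**
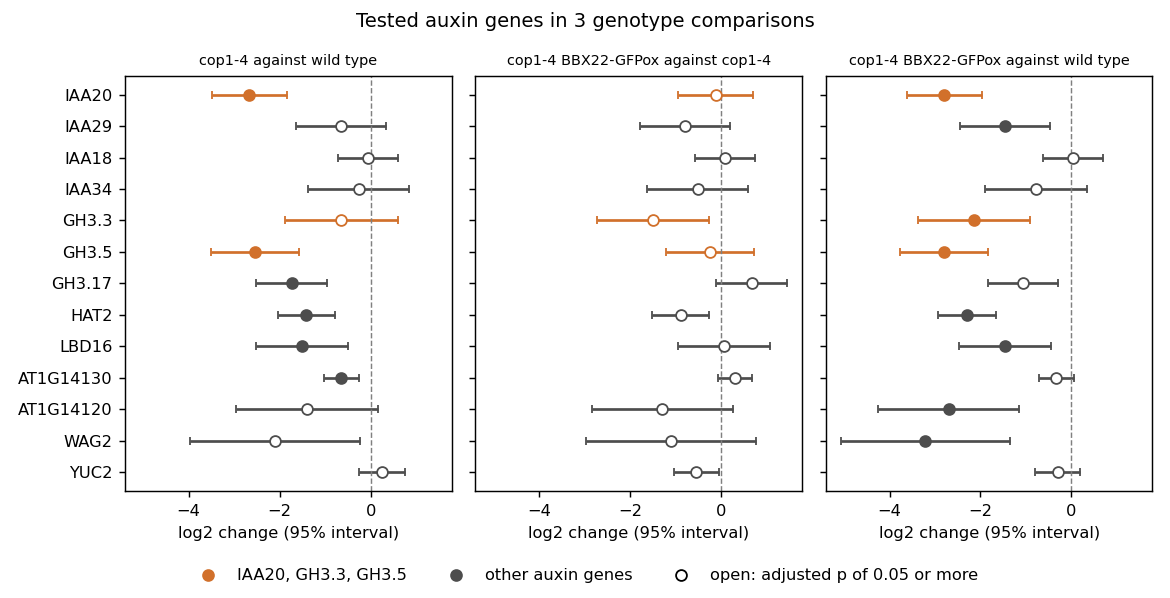
Log2 change with its 95% interval for the 13 tested auxin genes in the 3 comparisons; filled points have a limma adjusted p under 0.05. IAA20, GH3.5, HAT2 and LBD16 are filled in both comparisons with wild type, and no gene is filled for cop1-4 BBX22-GFPox against cop1-4.

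The remaining 10 auxin genes with a probe set did not pass the filter on dim signals, with signals of 0.8 to 146.0 and 39 of their 90 values under the offset of 24.5. In the Aux/IAA family IAA30, a close relative of IAA20, was at 33.7 to 56.7 with the construct, 28.4 to 55.8 in cop1-4 and 38.1 to 57.6 in wild type. IAA31, which with IAA20 and IAA30 lacks a canonical degradation motif, was at 19.0 to 58.4, 1.1 to 42.3 and 0.8 to 10.1 in the same genotypes, and IAA33 at 10.4 to 32.5, 6.8 to 64.8 and 5.9 to 44.6. In the GH3 family GH3.1 was at 3.7 to 35.6, 19.8 to 36.6 and 35.3 to 54.7, GH3.9 at 27.5 to 51.5, 27.2 to 32.0 and 4.4 to 47.8, and AT1G23160 at 3.6 to 78.8, 1.6 to 7.4 and 5.2 to 80.1. AT1G23160 was lowest in cop1-4, but replicate 1 of the construct line (3.6) and of wild type (5.2) lay within the cop1-4 range. All of these values were under the offset. LBD29, a transcription factor gene of lateral root formation, had signals of 22.2, 28.3 and 22.0 with the construct, 35.4, 1.2 and 3.5 in cop1-4, and 146.0, 114.4 and 40.2 in wild type, the highest of the 10 genes. LBD29 was below wild type on all arrays of both cop1-4 genotypes, while IAA31 was above wild type on all arrays of the construct line. Among tested probe sets, no overlap below wild type held for 25.7% in cop1-4 and 24.6% with the construct. The shares among dim probe sets and in the upward direction were not counted. All wild type values of IAA31 lay under the offset.

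A fit with no filter, over all 22746 probe sets, called 1 of these 10 genes. LBD29 fell in cop1-4 against wild type (−1.72, limma adjusted p = 0.0246, where 9.34% of probe sets were called lowered), and stood at −1.25 with the construct against wild type (0.0836, where 7.34% were). IAA31 stood at 1.07 with the construct against wild type (0.106). None of the 10 was called between cop1-4 BBX22-GFPox and cop1-4 (adjusted p of 0.718 or more, with 0.0264% of probe sets called lowered). The auxin synthesis gene YUC6 passed the filter in the fit to replicates 2 and 3 alone, which called it lower with the construct than in wild type (−0.998, limma adjusted p = 0.0362, where 32.6% were called lowered). Its signals were 8.9, 62.9 and 7.9 with the construct and 50.6, 107.7 and 61.0 in wild type, which overlap. The synthesis genes YUC4, at 2.9 to 32.3 on all arrays, and YUC11, at 2.5 to 26.8, were not called with no filter.

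The genes whose pattern was most like each of the 3 were found by Pearson's r with the log2 values over the 9 arrays among 8600 genes, as a description of arrays that share genotype and replicate. For IAA20 they were AT5G54200 (r = 0.992), AT4G34150 (0.986), AT5G11730 (0.980) and AT1G19835 (0.980). All 4 were lower in cop1-4 than in wild type, with log2 changes of −1.47, −0.63, −0.87 and −1.33 in that order, which are smaller than that of IAA20. Genes chosen by r over these same arrays share the direction of their changes by that choice, here and below. For GH3.5 they were Phox4 (0.992), AT2G47440 (0.991), AT5G17850 (0.991) and AT2G31090 (0.990), with log2 changes in cop1-4 of −1.34, −1.27, −2.04 and −0.87. For GH3.3 they were AT1G73040 (0.959), AT5G18470 (0.954), AT3G10300 (0.951) and IAA29 (0.947), none of which was called in cop1-4 against wild type.

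The likeness of IAA29 to GH3.3 was seen in the cop1-4 replicates, where both were lowest in replicate 1 and highest in replicate 2, and in the construct line, where IAA29 was at 168.0, 168.1 and 150.7 on the 3 arrays. HAT2 ranked 38th of the 8600 genes in likeness to GH3.3 (r = 0.870). Of the 10 further tested auxin genes the closest to IAA20 and to GH3.5 was LBD16 each time, at rank 674 (r = 0.851) and rank 335 (r = 0.903).

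**Figure D4:**
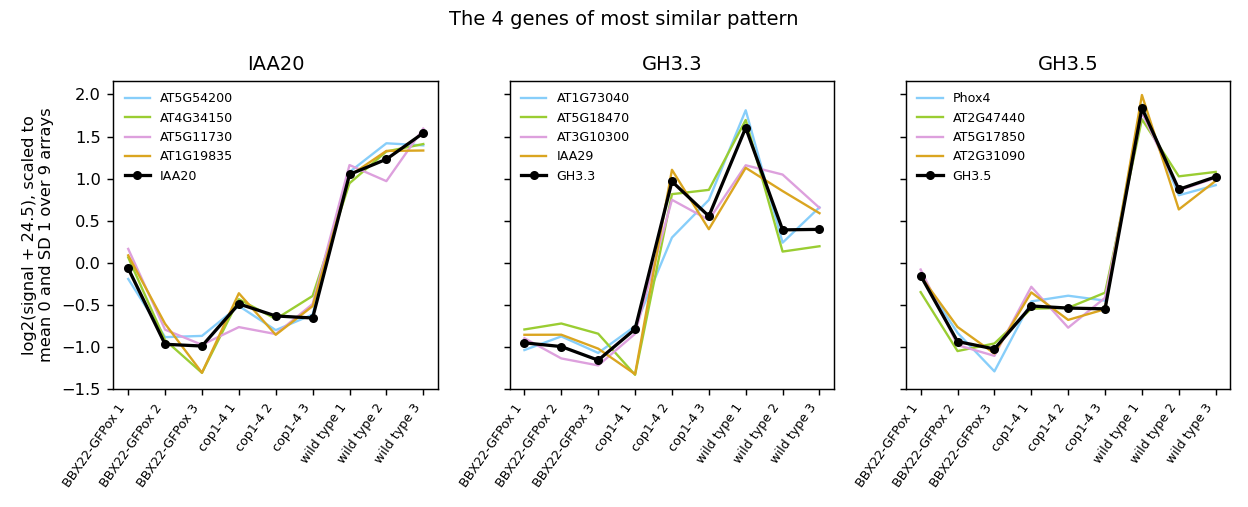
Log2(signal + 24.5), scaled to mean 0 and SD 1 over the 9 arrays, for each of the 3 auxin genes (black) and the 4 genes of highest Pearson's r with it; BBX22-GFPox on the axis stands for cop1-4 BBX22-GFPox and the digit for the replicate. The IAA20 and GH3.5 groups step up between cop1-4 and wild type, and the GH3.3 group steps up between cop1-4 replicate 1 and cop1-4 replicate 2.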

How the data were processed

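RNA of 9 samples was hybridised to 1-colour Affymetrix arrays. Per the submitters' processing notes the deposited intensities come from MAS5, whose version and target those sources do not give. Their 2% trimmed mean was 494.7 to 496.2 in all arrays. The array number limits the precision, and depth does not apply. Of 22746 probe sets 13513 had 1 gene, 503 several and 8730 none in the platform annotation. Of those with 1 gene 13436 matched the TAIR10.1 gene table, used for names only.

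Tests used log2(signal + 24.5), where 24.5 is the 20th percentile of all signals. Probe sets with a mean at or above the 30th percentile were kept, 15922 in all. Limma 3.58.1 (R 4.3.3) fitted 1 mean per genotype, with eBayes and an intensity trend, and p-values were adjusted by Benjamini-Hochberg within a comparison. The code was tested on simulated arrays with independent noise. These lacked the shared deviation of replicate 1, so that test does not bear on the calls made here. Exact permutation tests used scipy 1.17.1. Replicate numbers come from the labels. Same-numbered arrays deviated together from their genotype means in all 9 pairs (r = 0.375 to 0.806), so a fit with the number as a block was run. Across numbers, replicates 2 and 3 of different genotypes also deviated together (r = 0.337 to 0.739). The values therefore set replicate 1 apart and do not show a pairing of replicates 2 and 3 by number. The labels call the replicates biological without naming separate sowings. The p-values thus cover only how these samples scatter, which may be technical. Alternatives were the offset, the scaling, the filter, the block, replicate 1 as a batch, replicates 2 and 3 only, array weights and each array left out.

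The genes, lists and tests were chosen with earlier results of these data known. Named genes were the 3 genes, the measured Aux/IAA and GH3 genes, up to 4 called genes per direction from the other lists, the remaining tested auxin genes, and the 4 most alike by Pearson's r. The lists further held response factors, receptors, synthesis, transport and other response genes. COP1 and BBX22 transcripts and gene sequences were not analysed here.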

Additional observations from a re-analysis of the deposited data

How the results depend on the processing

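Of 168 values of the 9 gene results under alternatives, 156 kept direction and side of the threshold. IAA20 and GH3.5 stayed called lower in both comparisons with wild type under all that were run (IAA20 was removed by the filter at the 50th percentile). GH3.3 in cop1-4 against wild type turned to 0.43 in replicates 2 and 3 only and to 0.28 with array weights. IAA20 in cop1-4 BBX22-GFPox against cop1-4 turned to 0.09 and 0.11 without construct replicate 2 or 3 (range over single arrays left out −0.55 to 0.11). In that comparison GH3.3 was called in replicates 2 and 3 only (−2.15), with array weights (−2.10) and without cop1-4 replicate 1 (−2.10; range over single arrays left out −2.10 to −1.07), and GH3.5 in replicates 2 and 3 only (−0.63). In cop1-4 BBX22-GFPox against wild type GH3.3 ranged from −2.38 to −1.67 without single arrays. The cause was not tested. 

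The replicate block changed no call of the 3 genes. For cop1-4 against wild type it raised the 4100 called probe sets to 7096, the batch term to 7910, replicates 2 and 3 only to 9976 and array weights to 9776; single arrays left out gave 2222 to 5657. For cop1-4 BBX22-GFPox against cop1-4 the 48 calls became 206 with the block, 432 with the batch term, 3867 in replicates 2 and 3 only, 3510 with array weights, 27 with the filter at the 50th percentile, and 11 to 378 without single arrays. For cop1-4 BBX22-GFPox against wild type the 3427 became 6479, 7250, 9606 and 9389 in the first order of settings, and 1818 to 4840. Called auxin genes in cop1-4 BBX22-GFPox against cop1-4 numbered 8 of 13 tested in replicates 2 and 3 only, where 3867 of 15922 probe sets were called. They numbered 7 of 13 with array weights (3510 of 15922) and 4 of 12 without cop1-4 replicate 1 (378 of 15922), and 0 to 4 without single arrays. For the construct line against wild type they numbered 10 of 13 in replicates 2 and 3 only (9606 of 15922) and with array weights (9389). This compares with 8 of 13 over all arrays (3427), and 3 to 9 without single arrays. The tested genes differ, as replicates 2 and 3 only had YUC6 in place of IAA34. For cop1-4 against wild type median centring gave 2305 raised and 1774 lowered probe sets, against 1795 and 2305 without it, and a median change of 0.00100 in place of −0.11. The construct line against wild type had 1875 and 1557 so centred, against 1561 and 1866. Quantile normalization gave 2140 and 2084 for cop1-4 and 1807 and 1743 with the construct. Dim signals limit IAA20, whose log2 change in cop1-4 was −3.10 with no offset and −2.37 with the offset doubled.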
